A study of Mus musculus with 2 samples.

Results

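Pou3f1, Pou3f2 and Pou3f3 encode the class III POU domain transcription factors whose loci are described here, as mapped by DNase-seq in the embryonic mouse face. They are 3 of 21644 protein-coding genes and were chosen with earlier results of these data known. Their sites were selected on the measured values themselves, the peaks and hotspots called in both libraries, so that the counts and strengths below are a description and carry no test. Each peak or hotspot was given to the protein-coding gene whose transcription start site (TSS) lay nearest to its midpoint. By that rule the genes held 221 of 209299 peaks in replicate 1 and 210 of 219061 in replicate 2, with 151 of 178464 and 173 of 188815 hotspots. A peak within 1 kb of the TSS was a promoter peak, a farther one was distal, and a shared peak had at least 75 of its 150 bp under a peak of the other library.

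The tissue was the facial prominence, the embryonic outgrowths that form the face, from healthy B6NCrl mouse embryos at day 11.5, with males and females pooled. There was 1 group of 2 libraries, labelled biological replicates and made from separate biosamples, with no treatment, mutant allele or control group. Per the labels the libraries were run on different sets of sequencing instruments, and library and instrument cannot be told apart. DNase I cuts open chromatin, and the authors called peaks (150 bp sites) and hotspots (wider regions rich in cuts) on each library alone. Each peak carried a strength, a value of the authors' own on a scale whose relation to sequencing depth is unknown here. Its median was 16 in replicate 1 and 42 in replicate 2, so strengths were compared within a library, as percentiles among all peaks of that library. Without read totals, the depth behind each value is unknown as well.

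Class III POU factors bind octamer-type DNA letters through paired POU-specific and homeodomain segments, often beside a SOX partner of the SoxB1 group, and act in progenitors that are about to differentiate. Pou3f1 (also Oct6 or SCIP) is known for timing Schwann cell myelination, Pou3f2 (Brn2) for cortical and hypothalamic neurons, and Pou3f3 (Brn1) for cortical neurons, the kidney and the mesenchyme of the upper jaw. All are genes of a single exon. A site near a gene need not regulate it, and in a mixed tissue a few strongly open cells and many weakly open ones cannot be told apart.

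The tissue label was set beside marker genes. A shared promoter peak was found at 14 of 16 genes of facial mesenchyme and neural crest, and all 16 had a promoter peak in each library. It was also found at 9 of 9 genes of neural tube and neurons, 4 of 7 of facial ectoderm, 1 of 5 of endothelium, 0 of 5 of erythroid cells and 0 of 4 of macrophages. Libraries differed most at endothelium, with a promoter peak at 1 of 5 genes in replicate 1 and 5 of 5 in replicate 2. The counts in replicates 1 and 2 were 4 and 5 for facial ectoderm and 1 and 2 for erythroid cells. Over all protein-coding genes the share with a shared promoter peak was 61.1%, so these counts say little about which cells were present. The neural markers were thus open along with the mesenchymal ones, and their part in the sites below was not tested.

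Each of the genes had a shared promoter peak, which 61.1% of all protein-coding genes also had. Each had more shared distal peaks than the size of its interval predicts, as did 44.6% of all genes. The interval holds every position that lies nearer to a TSS of the gene than to that of any other, and the prediction shares all 62956 shared distal peaks out by interval size. Pou3f1 had 4 shared distal peaks against 0.990 predicted, Pou3f2 had 29 against 25.6, and Pou3f3 had 47 against 24.4. These are peaks of replicate 1, some of which overlap each other and share a match. Counted as peaks of replicate 2, the shared distal peaks were 4, 27 and 46. Over all genes the median was 1 shared distal peak and the median ratio to prediction was 0.78. Pou3f3 thus ranked 14 of 21644 by shared distal peaks, Pou3f2 ranked 109 and Pou3f1 ranked 4315. The members were alike in having an open promoter and differed in how much surrounded it. Pou3f2 stood at 1.13 times its prediction, Pou3f3 at 1.92 times and Pou3f1 at 4.04 times, the last on 4 peaks. The prediction is even along an interval, whereas shared peaks at Pou3f2 and Pou3f3 were dense near the TSS. Ratios for the short interval of Pou3f1 and the long ones are therefore not directly comparable.

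**Figure D1:**
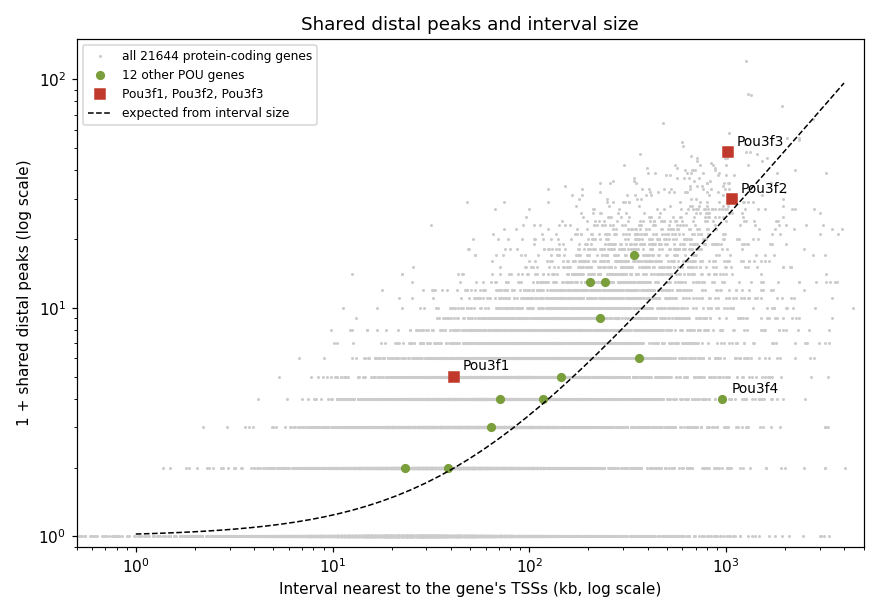
Shared distal peaks of each gene plus 1 (vertical, log scale) against the interval nearest to its TSSs in kb (horizontal, log scale). Grey points are the 21644 protein-coding genes, green points the 12 other POU genes and red squares Pou3f1, Pou3f2 and Pou3f3; the dashed line is the prediction from interval size. Pou3f3, with 47 shared distal peaks, and Pou3f2, with 29, lie at the right in intervals of about 1 Mb, Pou3f1 with 4 lies above the line in a short interval, and Pou3f4 lies far below it.

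Pou3f3 had the most shared distal peaks of the set and the highest density of shared peaks within 20 kb. The gene lies on the plus strand at chr1:42695768-42703176 (mm10), with its coding sequence at chr1:42697146-42698636. Its interval of 1020 kb reached 945 kb upstream, into a desert that ends at Tmem182 (TSS 1890 kb away), and 77.7 kb downstream towards the mitochondrial ribosomal protein gene Mrps9 (TSS 155 kb away). Replicate 1 had 3 promoter peaks and 131 distal ones, and replicate 2 had 3 and 115. Of these, 2 promoter and 47 distal peaks of replicate 1 were shared.

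The strongest Pou3f3 peak, centred 78 bp before the TSS, had strength 84 in replicate 1 and 130 in replicate 2, at percentiles 96.1 and 97.8. The other shared promoter peak, at chr1:42694956-42695105 and centred 738 bp before the TSS, had strengths of 63 and 87. Both ranked high in both libraries. The promoter sequences that carry these peaks are shown for Pou3f3 and Pou3f2 on the plus strand of mm10, with capitals for CCAAT and GGGCGG on either strand, the letters of the CCAAT box and the GC box. These letters were chosen after the sequences were seen. The Pou3f1 promoter peak lies in a 5′ UTR and is not printed.
Pou3f3 promoter, chr1:42695616-42695765: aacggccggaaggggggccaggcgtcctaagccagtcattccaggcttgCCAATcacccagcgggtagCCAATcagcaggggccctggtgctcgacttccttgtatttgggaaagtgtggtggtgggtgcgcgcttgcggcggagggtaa
Pou3f2 promoter, chr4:22488436-22488585: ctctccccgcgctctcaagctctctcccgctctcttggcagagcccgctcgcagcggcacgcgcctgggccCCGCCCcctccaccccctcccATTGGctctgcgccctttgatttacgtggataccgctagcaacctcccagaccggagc
The Pou3f3 peak holds CCAAT at 2 places close together and the Pou3f2 peak holds both letter groups, each on the opposite strand. CCAAT occurred in 21.9% and GGGCGG in 46.9% of all 22994 shared promoter peaks, so a match is common. The Pou3f1 promoter peak held both as well.

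The widest open region at Pou3f3 was a single hotspot of replicate 1 at chr1:42691095-42702626. It is 11532 bp long, ranks 2 of 178464 in that library by width, and spans 4.67 kb upstream to 6.86 kb downstream of the TSS, over the whole coding sequence. It held 19 peaks, of which 11 were shared. In replicate 2 the same stretch was broken into 11 hotspots that covered 61.5% of it and held 20 peaks. The widest of them, at chr1:42693249-42697225, was 3977 bp and ranked 100 of 188815. Both libraries were therefore open along the gene body, as one block in replicate 1 and in pieces in replicate 2. Because its midpoint lies past 1 kb from the TSS, the wide hotspot counted as distal, which left Pou3f3 with 0 promoter hotspots in replicate 1 by the midpoint rule.

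**Figure D2:**
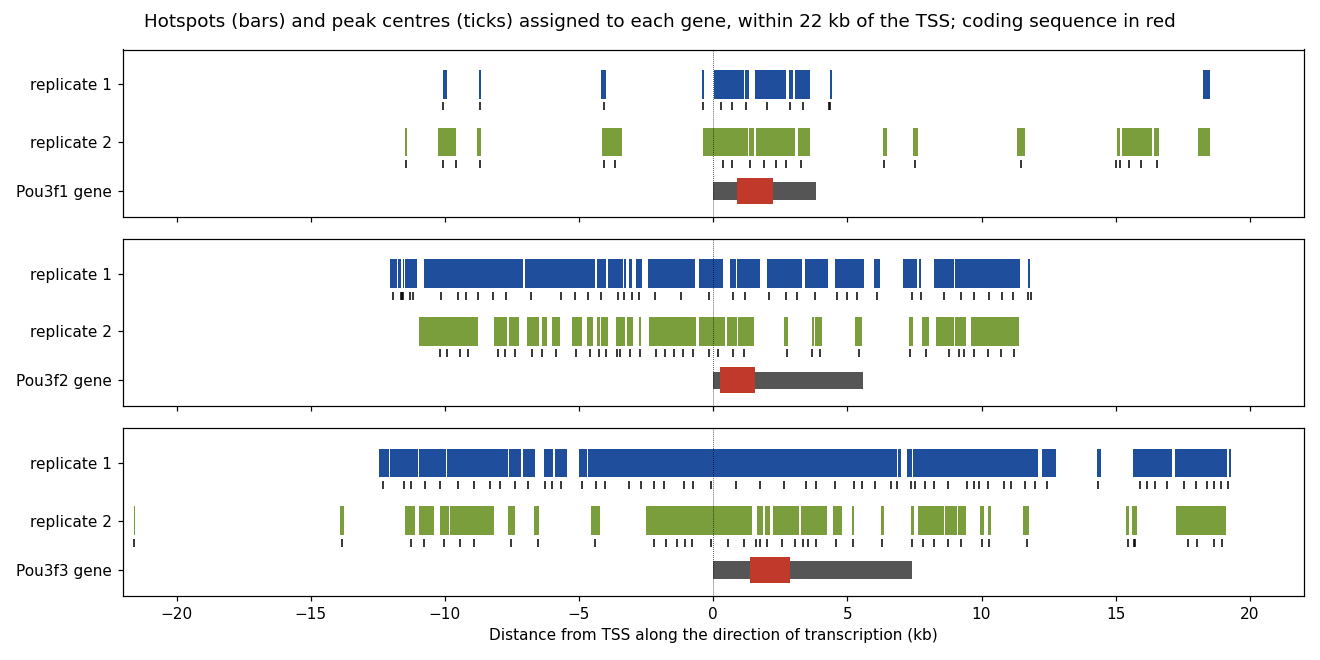
Hotspots (bars, replicate 1 blue and replicate 2 green) and peak centres (ticks) assigned to Pou3f1, Pou3f2 and Pou3f3 by distance from the TSS in kb along the direction of transcription. Grey boxes are the genes and red boxes the coding sequences; in Pou3f3 a hotspot of 11532 bp runs across the gene in replicate 1, while Pou3f1 has fewer hotspots, the widest of 1161 bp in replicate 1 and 1673 bp in replicate 2.

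Within 20 kb of the TSS on either side, hotspots covered 27.5 kb (68.7%) at Pou3f3 in replicate 1 and 15.1 kb (37.9%) in replicate 2. At Pou3f2 they covered 19.6 kb and 13.3 kb, and at Pou3f1 4.04 kb and 7.96 kb. The medians over all genes were 1.76 kb and 2.13 kb. Pou3f3 ranked 7 of 21644 in replicate 1 and 47 in replicate 2, and Pou3f2 ranked 41 and 80. Pou3f1 ranked 2917 and 393, and was the member whose cover was higher in replicate 2. The distance of 20 kb was chosen after the positions of the peaks were seen.

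The distal sites of Pou3f3 fell into a dense part around the gene and a thinner spread over the desert. Between 1 and 20 kb lay 57 distal peaks of replicate 1, of which 20 were shared, and the density of all shared peaks within 20 kb was 55 per 100 kb. Beyond 20 kb the density was 2.75 per 100 kb. All shared peaks over the genome, near and far together, came to 3.26 per 100 kb. Of the shared peaks there, 3 lay between 20 and 100 kb and 24 beyond 100 kb, all of the 24 upstream, as the downstream side ends before that distance. The strongest shared distal sites near the gene were at chr1:42686776-42686925, 8.92 kb upstream, with strengths of 65 and 94, at chr1:42714636-42714785, 18.9 kb downstream, with 51 and 100, and at chr1:42693876-42694025, 1.82 kb upstream, with 55 and 89. The sites at 8.92 and 1.82 kb lie in an intron and an exon of Pantr1, a long noncoding RNA gene transcribed away from Pou3f3.

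Beyond 20 kb, the strongest shared sites of Pou3f3 were among the stronger peaks of both libraries. They are shown with the farthest shared site and the only shared site with octamer letters, on the plus strand, with capitals for any of the 11 motifs listed further on.
Pou3f3 76.5 kb downstream, chr1:42772176-42772325: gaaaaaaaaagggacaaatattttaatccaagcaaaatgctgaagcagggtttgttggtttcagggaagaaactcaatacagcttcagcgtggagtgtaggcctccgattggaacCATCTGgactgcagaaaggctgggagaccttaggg
Pou3f3 65.8 kb upstream, chr1:42629876-42630025: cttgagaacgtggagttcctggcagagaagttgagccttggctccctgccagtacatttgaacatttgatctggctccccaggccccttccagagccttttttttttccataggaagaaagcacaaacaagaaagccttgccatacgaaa
Pou3f3 457 kb upstream, chr1:42238496-42238645: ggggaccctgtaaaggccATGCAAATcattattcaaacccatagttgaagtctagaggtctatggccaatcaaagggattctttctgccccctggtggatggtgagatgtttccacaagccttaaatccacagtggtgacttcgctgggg
Pou3f3 885 kb upstream, chr1:41810476-41810625: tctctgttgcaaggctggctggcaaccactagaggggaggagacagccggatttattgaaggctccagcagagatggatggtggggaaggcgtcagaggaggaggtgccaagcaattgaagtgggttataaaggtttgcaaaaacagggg
Pou3f3 936 kb upstream, chr1:41759496-41759645: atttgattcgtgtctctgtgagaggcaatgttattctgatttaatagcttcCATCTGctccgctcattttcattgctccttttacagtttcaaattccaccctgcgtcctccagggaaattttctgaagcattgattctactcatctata
The site 76.5 kb downstream is intergenic and had strengths of 46 and 109, at percentiles 85.6 and 93.6. The site 885 kb upstream, in an intron of the long noncoding RNA gene Gm29260, had 42 and 101, at percentiles 83.4 and 91.7. The site 65.8 kb upstream, in a Pantr1 intron, had 40 and 79. Each of these ranked higher in replicate 2 than in replicate 1. The farthest shared site, 936 kb upstream, had 35 and 81, while the site with the octamer letters, in an exon of Gm29664, was of ordinary strength at 19 and 42. CATCTG, the letters of a Twist-type E-box, occurs in the site 76.5 kb downstream and in the farthest one.

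The desert between Pou3f3 and Tmem182 was open on both sides of its middle. Its 1890 kb held 35 shared peaks on the Pou3f3 side and 25 on the Tmem182 side. Without the peaks within 20 kb of either TSS the counts were 26 and 24, so that away from the gene the desert was divided almost evenly. On the Tmem182 side replicate 1 had 182 peaks and replicate 2 had 79, while the Pou3f3 side had 95 and 85.

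**Figure D3:**
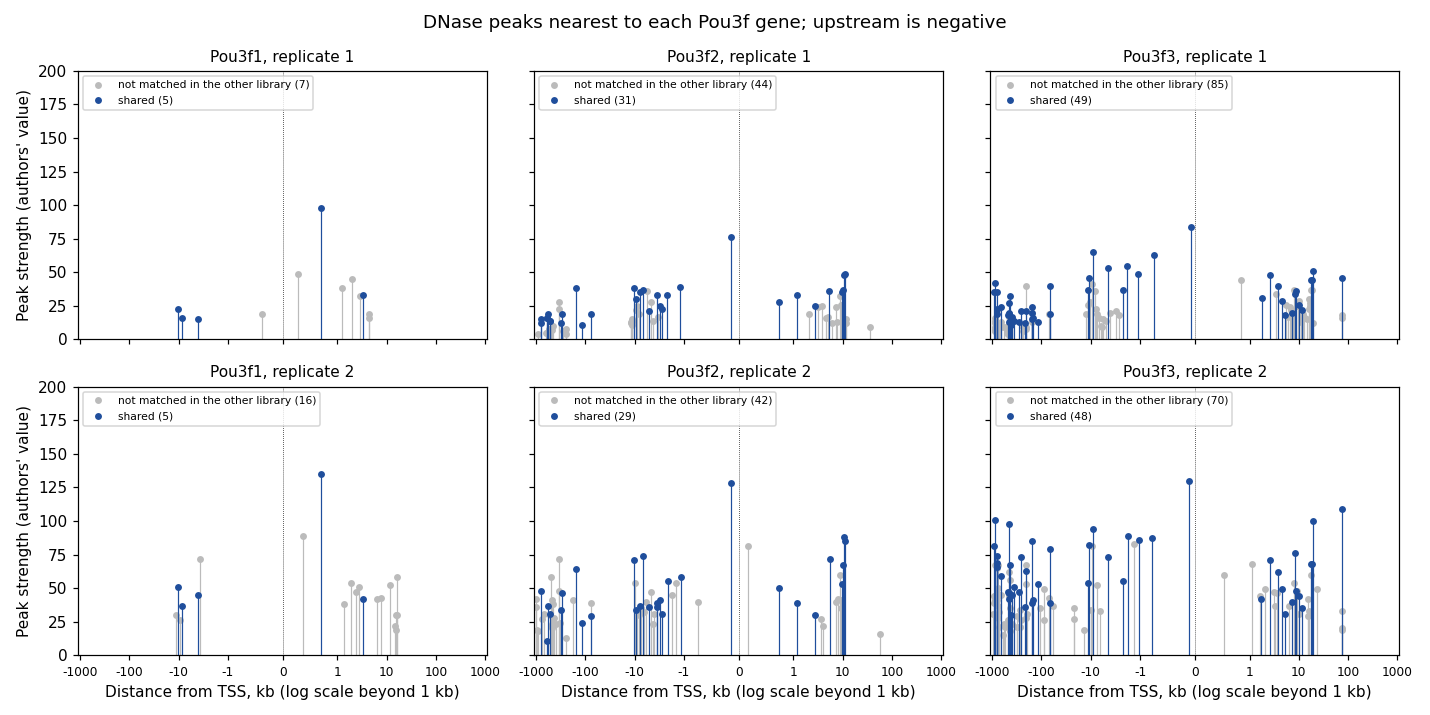
Strength of every peak assigned to Pou3f1, Pou3f2 and Pou3f3 (vertical, the authors' value) against signed distance from the TSS in kb (horizontal, log scale beyond 1 kb, upstream negative), replicate 1 above and replicate 2 below. Blue points are shared peaks and grey points unmatched ones; the promoter peak is the strongest point in each panel, from 76 to 98 in replicate 1 and 128 or more in replicate 2.

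Pou3f2 lies on the minus strand at chr4:22482780-22488366, with its coding sequence at chr4:22486797-22488131. Its interval of 1070 kb, at chr4:22422955-23492408, reached 1000 kb upstream towards Mms22l (TSS 2010 kb away) and 65.4 kb downstream towards the ubiquitin ligase gene Fbxl4 (TSS 131 kb away). Replicate 1 had 2 promoter and 73 distal peaks, and replicate 2 had 4 and 67. Of the peaks of replicate 1, 2 promoter and 29 distal ones were shared. The interval was thus as long as that of Pou3f3 and held fewer shared sites.

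The strongest Pou3f2 promoter peak, centred 144 bp before the TSS, had strengths of 76 and 128, at percentiles 94.9 and 97.4. The other shared one, in the coding sequence 736 bp past the TSS, had 28 and 50. Replicate 2 also had a peak of strength 81 centred 176 bp past the TSS, at chr4:22488116-22488265, with no overlapping peak in replicate 1. It was the strongest unmatched peak of Pou3f2 in that library.

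The strongest shared distal sites of Pou3f2 lay downstream, at 11.2 kb with strengths of 49 and 85 and at 10.8 kb with 48 and 88. A site 6.8 kb upstream, at chr4:22495096-22495245, had 37 and 74. In replicate 2 both downstream sites lay in its widest hotspot at this gene, of 1822 bp at chr4:22476955-22478776. In replicate 1 the widest was 2623 bp at chr4:22492772-22495394, upstream. Neither library had a block across the gene like the one at Pou3f3. The site 11.2 kb downstream is shown with 2 upstream sites: among shared sites, the one with the highest percentiles beyond 20 kb and the one with Brn2-type letters.
Pou3f2 11.2 kb downstream, chr4:22477116-22477265: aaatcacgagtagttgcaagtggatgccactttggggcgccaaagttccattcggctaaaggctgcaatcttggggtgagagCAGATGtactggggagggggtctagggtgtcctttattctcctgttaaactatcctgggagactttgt
Pou3f2 5.14 kb upstream, chr4:22493436-22493585: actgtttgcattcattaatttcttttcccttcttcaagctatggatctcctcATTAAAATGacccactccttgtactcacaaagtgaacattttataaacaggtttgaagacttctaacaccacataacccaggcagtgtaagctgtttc
Pou3f2 157 kb upstream, chr4:22645736-22645885: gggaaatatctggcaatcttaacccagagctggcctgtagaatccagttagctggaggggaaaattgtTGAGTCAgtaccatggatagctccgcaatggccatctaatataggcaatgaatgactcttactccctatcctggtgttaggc
The site 157 kb upstream had strengths of 38 and 64 and holds TGAGTCA, the AP-1 letters. The site 5.14 kb upstream, with 21 and 36, holds ATTAAAATG, the Brn2-type letters CATNNTAAT on the opposite strand, and lies in the widest hotspot of replicate 1 at this gene. The farthest shared site, 784 kb upstream at chr4:23272116-23272265, had 15 and 48.

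Shared sites of Pou3f2 were also dense near the gene and thinner beyond. All shared peaks within 20 kb came to 47.5 per 100 kb, and those farther away to 1.17 per 100 kb, against 3.26 over the genome. Such crowding is general: over all genes, 25236 of 62956 shared distal peaks lay between 1 and 20 kb. Of the 29 distal ones, 17 lay between 1 and 20 kb, 1 between 20 and 100 kb and 11 beyond 100 kb upstream. Of the desert towards Mms22l, the Pou3f2 side held 23 shared peaks and the Mms22l side 5. Without the peaks within 20 kb of either TSS the counts were 12 and 4. Counted as peaks of replicate 2 they were 21 and 5, or 9 and 4 beyond 20 kb. This desert was thus more one-sided than the one upstream of Pou3f3, where the counts were 35 and 25, or 26 and 24 beyond 20 kb.

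Pou3f1 was the contrast within the set. It lies on the plus strand at chr4:124656807-124660655, with its coding sequence at chr4:124657707-124659053, between 3100002H09Rik (TSS 46.0 kb away) and the small-subunit processome gene Utp11 (TSS 36.8 kb away). Its interval was 41.4 kb. Replicate 1 had 3 promoter and 9 distal peaks, and replicate 2 had 2 and 19. A single promoter peak and 4 distal peaks were shared. The shared promoter peak, at chr4:124657436-124657585, is in the 5′ UTR 703 bp past the TSS, has 80.7% GC, and had a strength of 98 in replicate 1. At percentiles 98.2 and 98.8 it was, in both libraries, the strongest peak of all those given to the 3 genes, beside the fewest shared distal peaks. The densities of shared peaks were 13 per 100 kb within 20 kb of the TSS at Pou3f1 and 47.5 and 55 at Pou3f2 and Pou3f3.

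The shared distal peaks of Pou3f1 were of middling strength. The farthest, 10.1 kb upstream in an intron of the antisense gene Gm2164, had strengths of 23 and 51. Sites 8.7 and 4.06 kb upstream also in Gm2164 introns, had 16 and 37, and 15 and 45. The remaining one, 3.34 kb past the TSS in the 3′ UTR, had 33 and 42. None came near the promoter peak. The first is shown, with capitals for AGGTCA and AGATAA, both on the opposite strand.
Pou3f1 10.1 kb upstream, chr4:124646676-124646825: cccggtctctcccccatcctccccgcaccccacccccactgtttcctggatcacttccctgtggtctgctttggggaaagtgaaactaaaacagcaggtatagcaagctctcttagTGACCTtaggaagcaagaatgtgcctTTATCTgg

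The 75 bp rule decided 1 further promoter site at Pou3f1. Replicate 1 had a peak centred 283 bp past the TSS with strength 49, and replicate 2 one at 363 bp with strength 89. They overlap by 70 bp and so were counted as unmatched. Overlaps came in steps of 20 bp, and among the 221 peaks of replicate 1, 16 had an overlap of 90 bp, just inside the rule, and 11 had one of 70 bp, just outside it. A further limit is the distance of 1 kb: just outside it lay a shared peak of Pou3f3 centred 1098 bp before the TSS (strengths 49 and 86) and shared peaks of Pou3f2 centred 1184 bp before the TSS (39 and 58) and 1196 bp past it (33 and 39). These were counted as distal, and the shared promoter peaks nearest to the limit from inside were those at 738 bp of Pou3f3 and 736 bp of Pou3f2.

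How often a distal peak of 1 library was found in the other was close to the level of all genes. Of the distal peaks of replicate 1, 37.6% of the members' were matched in replicate 2 (80 of 213, exact 95% interval 31.0 to 44.4%), against 36.3% over all genes. Of those of replicate 2, 38.3% were matched (77 of 201, 31.6 to 45.4%), against 34.2%. The intervals are binomial ones for counting error alone, with each peak taken as independent. By gene, replicate 1 was matched for 44.4% at Pou3f1 (4 of 9, 13.7 to 78.8%), 39.7% at Pou3f2 (29 of 73, 28.5 to 51.9%) and 35.9% at Pou3f3 (47 of 131, 27.7 to 44.7%). In the other direction the shares were 21.1% at Pou3f1 (4 of 19, 6.05 to 45.6%), 40.3% at Pou3f2 (27 of 67, 28.5 to 53.0%) and 40% at Pou3f3 (46 of 115, 31.0 to 49.6%). All of these intervals overlap each other.

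Among the unmatched peaks, some lay in open chromatin of the other library all the same. Of the 85 unmatched replicate 1 peaks of Pou3f3, 18 lay in a hotspot of replicate 2 and 61 touched none. Of the 70 unmatched ones of replicate 2, 26 lay in a hotspot of replicate 1 and 42 touched none. At Pou3f2 the counts were 11 and 30 of 44 in replicate 1, and 20 and 21 of 42 in replicate 2. At Pou3f1 they were 4 and 2 of 7, and 4 and 11 of 16. In replicate 1 the unmatched distal peaks had a median strength of 14.5 at Pou3f3 and 13 at Pou3f2, below the 26 and 25 of the shared ones. At Pou3f1 the unmatched ones had the higher median, 32 against 19.5. In replicate 2 the medians of unmatched and shared distal peaks were 37 and 60.5 at Pou3f3, 34 and 39 at Pou3f2 and 42 and 43.5 at Pou3f1. The strongest unmatched peaks of Pou3f3 were one of strength 44 centred 842 bp past the TSS in replicate 1 and one of strength 83 at chr1:42694356-42694505 in replicate 2.

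At Pou3f3 the libraries differed in how they ranked near and far sites, and at Pou3f2 replicate 1 ranked both higher. At Pou3f3 the 20 shared peaks between 1 and 20 kb had a median percentile of 81.0 in replicate 1 and 74.3 in replicate 2, and 18 of them ranked higher in replicate 1. The 24 beyond 100 kb had medians of 57.5 and 63.3, and 18 of them ranked higher in replicate 2. At Pou3f2 the 17 near peaks had medians of 78.4 and 64.4, with 15 higher in replicate 1. But the 11 beyond 100 kb had 46.8 and 35.8, with 9 higher in replicate 1. Some of these overlap each other and share a match, so the 11 correspond to only 8 peaks of replicate 2. The 24 at Pou3f3 correspond to 23. Near sites thus ranked above far sites in both libraries, and replicate 1 put the near sites higher at both genes. Over all genes the medians between 1 and 20 kb were 75.6 and 75.1, with 14570 of 25236 shared peaks higher in replicate 1. Beyond 100 kb they were 64.2 and 68.9, with 7709 of 14332 higher in replicate 2, the direction of the far sites at Pou3f3 and not of those at Pou3f2.

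Base composition moved with the same division. The median GC content of the shared peaks was 57.0% between 1 and 20 kb and 44.7% beyond 100 kb at Pou3f3, and 56.7% and 44.0% at Pou3f2. Of the members' shared distal peaks with at least 55% GC, 20 of 24 ranked higher in replicate 1, against 51.3% of 16758 such peaks over all genes. Below 45% GC it was 16 of 27 against 57.2%. The part of base composition, of the instruments and of depth in this was not tested. Between the strengths of the libraries the Spearman correlation was 0.76 over 29 shared distal peaks at Pou3f2, 0.75 over 47 at Pou3f3 and 0.84 over all 62956. At Pou3f2 it was 0.87 over the 17 peaks between 1 and 20 kb and 0.27 over the 11 beyond 100 kb, and at Pou3f3 0.91 over 20 and 0.80 over 24. These correlations are descriptions, since the peaks share their libraries, differ in base composition and, among the 11, include overlapping pairs with the same match. The pair 613 kb upstream of Pou3f2 was 80.0% and 53.3% repeat sequence. Both its peaks had strength 16 in replicate 1, at percentile 49.3, and their match in replicate 2 had 11, at percentile 0.346. How far this pair lowers the 0.27 was not computed.

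**Figure D4:**
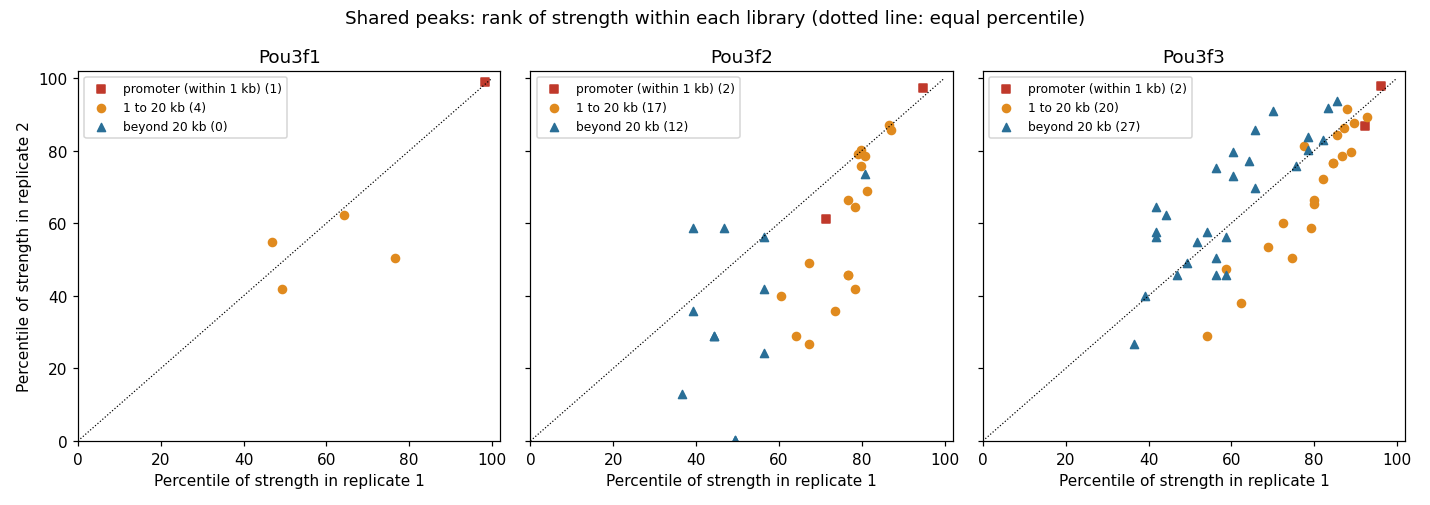
Percentile of strength among all peaks of the library, replicate 1 (horizontal) against replicate 2 (vertical), for each shared peak of Pou3f1, Pou3f2 and Pou3f3. Red squares are promoter peaks, orange circles lie 1 to 20 kb and blue triangles over 20 kb from the TSS; 15 of 17 orange circles at Pou3f2 and 18 of 20 at Pou3f3 lie below the dotted line of equal percentile.

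The median width of hotspots was 256 bp in replicate 1 and 232 bp in replicate 2 at Pou3f3, and 199.5 and 253 bp at Pou3f2, against 201 and 240 bp over all hotspots. At Pou3f1, with 12 and 16 hotspots, it was 140.5 and 355.5 bp, below that of all hotspots in replicate 1 and above it in replicate 2. Hotspots over 2000 bp numbered 4 of 85 and 1 of 97 at Pou3f3, 2 of 54 and 0 of 60 at Pou3f2 and 0 at Pou3f1, where all hotspots gave 0.954% and 1.08%. The −log10 q value that the authors gave each hotspot has a ceiling of 100. It was reached by 31 of 85 and 25 of 97 hotspots at Pou3f3, by 14 of 54 and 14 of 60 at Pou3f2 and by 2 of 12 and 6 of 16 at Pou3f1, against 29.4% and 35.2% of all hotspots. Another wide hotspot of replicate 1, of 3783 bp at chr1:42231990-42235772, lay 462 kb upstream of Pou3f3 and held 8 peaks. In replicate 2 the same stretch held only hotspots of 512 and 136 bp. In replicate 1 Pou3f3 thus stood out by its widest hotspot. Its share of hotspots over 2000 bp there, 4.71%, was near the 3.7% of Pou3f2. At the ceiling its share was 36.5% against 29.4% of all hotspots, and the counts are small.

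Noncoding genes shared much of the open chromatin. Around Pou3f3, Pantr1 has its TSS 0.926 kb upstream, with 5 shared peaks within 1 kb of it, and AC122898.1, which overlaps Pou3f3 on the same strand, has one 0.843 kb upstream with 4. Pantr2, 17.7 kb downstream, had 2 shared peaks, with strengths up to 44 and 68. No peak lay at the TSS of Dalir, 54.9 kb downstream, a long noncoding RNA described in neural differentiation. At Pou3f2, Gm30731 starts 2.18 kb upstream and had 4 shared peaks, with strengths up to 39 and 55. At Pou3f1, the TSS of Gm2164 lies 0.362 kb past that of Pou3f1 on the opposite strand, inside the same open promoter. DNase cuts carry no strand, so cuts at these paired starts cannot be given to 1 gene. By position, the 47 shared distal peaks of Pou3f3 were 6 in its own exon, 25 in another gene's body, of which 9 in Pantr1, and 16 intergenic. The 29 of Pou3f2 were 3, 6 and 20.

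The letters of 11 motifs were searched on both strands of the 80 shared distal peaks in replicate 1 coordinates, beside all 62956. ATGCAAAT, the octamer that POU factors bind, was in 1 of 80 (1.25%) against 0.897% of all, and CATNNTAAT, the Brn2-type letters, in 1 (1.25%) against 1.37%. The SOX letters AACAATG were in 3 (3.75%) against 2.14%, and TAATTA, of homeodomain factors, in 2 (2.5%) against 3.74%. CATCTG, the commonest here, was in 14 (17.5%) against 18.4%. AP-2 letters GCCNNNGGC were in 6 (7.5%) against 6.26% and nuclear receptor letters AGGTCA in 6 (7.5%) against 8.89%. TEAD letters GGAATG were in 5 (6.25%) against 10.5%, AP-1 letters TGANTCA in 2 (2.5%) against 4.4%, AGATAA of GATA factors in 4 (5.0%) against 5.01% and AGGGGGCGC of CTCF in 1 (1.25%) against 1.92%. ATGCAAAT, CATNNTAAT and TAATTA can share letters. On counts this small the members' sites held these letters about as often as other shared distal sites, and a match is no evidence of binding.

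Other genes of the family and its known partners and targets give the setting. Of the 12 other POU genes, 7 had a shared promoter peak, against 61.1% of all protein-coding genes. More shared distal peaks than predicted were found at 10 of the 12, against 44.6% of all genes. Over the 12 the median was 3.5 shared distal peaks, with at most 16 at Pou4f1, a regulator of sensory neurons. Pou5f1, the pluripotency factor Oct4, and Pou1f1, of the pituitary, had no shared promoter peak. Pou3f4, the remaining class III gene, lies on X in an interval of 957 kb and had 3 shared distal peaks against 22.9 predicted, a ratio of 0.131, although its promoter peak had strengths of 46 and 105. Among the class III genes with an interval of about 1 Mb, Pou3f4 thus had the fewest and Pou3f3 the most. The prediction treats X like the autosomes, although males and females were pooled, so the ratio of Pou3f4 is not directly comparable. All 3 SoxB1 partners had a shared promoter peak, and Sox2 had 42 shared distal peaks against 20 predicted, Sox1 had 23 against 3.52 and Sox3 had 3 against 7.09. All 5 known targets on the list had one too. Shared distal peaks numbered 19 at Mitf, the pigment cell regulator, 11 at the Notch ligand gene Dll1, 4 at Nes, a neural progenitor filament, 2 at Egr2, of myelinating Schwann cells, and 2 at Crh, the hypothalamic stress peptide.

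Genes with the most alike profile were found by the distance over 6 values, the log2 counts of promoter and distal peaks in each library, of shared distal peaks, and the log2 interval size. For Pou3f3 they included Intu (distance 0.54) and Sox4 (0.78). For Pou3f2 they were Mctp2 (0.40), Trib2 (0.58) and Tle4 (0.61). For Pou3f1 they were Rspo1 (0.47), H2-D1 (0.61) and Rab11fip1 (0.64). Pou3f3 was at distance 1.43 from Pou3f2 and at rank 125 in its order, and at 7.25 from Pou3f1. The distance includes interval size, 1020 and 1070 kb against 41.4 kb at Pou3f1, and counts that can grow with it. That the larger loci were closer to each other than to Pou3f1 therefore restates their size in part.

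The counts of distal peaks depend on which TSSs divide the genome and on how weak a peak may be. With the TSSs of all annotated genes in place of protein-coding ones, shared distal peaks fell to 3 at Pou3f1, 7 at Pou3f2 and 8 at Pou3f3, since noncoding genes then take most of them. With the 50000 strongest peaks of each library alone they were 0, 5 and 13.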

How the data were processed

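DNase-seq peaks and hotspots of 2 libraries of mouse facial prominence were analysed. Their build is mm10, per notes that accompany the files. Which aligner and caller were used is not stated in these sources. Peak strength is a score deposited by the authors on a scale not given, and each deposited hotspot carries the authors' −log10 q value. Strengths were used only to rank and describe. TSSs came from protein-coding transcripts in the basic set of GENCODE M21 (41135 positions, chromosomes 1 to 19 and X), and sequence from RefSeq's GRCm38.p6. Midpoints set distance, and each peak went to 1 gene. Percentiles rank a peak's strength among all peaks of its library. Intervals are exact binomial. Members, lists and motifs were chosen with earlier results of these data known, and the promoter letters and the 20 kb limit after seeing the values. Named are the members, bounding genes, other POU genes, SoxB1 partners, 5 targets, noncoding genes in the intervals, the 3 most alike genes per member, and each member's promoter peaks, strongest, nearest, farthest and unmatched peaks and widest hotspots. Some items, among them 1 of the alike genes, are not reported here. Peaks on Y, the mitochondrial genome and scaffolds were not analysed here. Counting was tested on simulated peaks. Python 3.11.15, pandas 2.3.3 and scipy 1.17.1 were used. Alternatives changed the overlap, promoter window, strength, distance limit and TSS set.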

Additional observations from a re-analysis of the deposited data

How the results depend on the processing

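Counts are for shared peaks of Pou3f1, Pou3f2 and Pou3f3, which were 4, 29 and 47 distal and 1, 2 and 2 at the promoter. Across the alternatives 27 recounts stayed within 1.5 times and 27 did not. A minimum overlap of 90% left 4 distal peaks at Pou3f2, 5 at Pou3f3 and 0 promoter peaks at Pou3f3, and an overlap of 1 bp gave 2 promoter peaks at Pou3f1. Any overlap with a replicate 2 hotspot gave 7 distal and 2 promoter peaks at Pou3f1. The 50000 strongest peaks gave 0, 5 and 13 distal peaks and 1 promoter peak at Pou3f2. The TSSs of all annotated genes gave 7 distal peaks at Pou3f2 and 8 at Pou3f3, and 0 promoter peaks at Pou3f1 and 1 at Pou3f3. A limit of 100 kb gave 18 and 23 distal peaks at Pou3f2 and Pou3f3, and a promoter window of 2500 bp gave 5 and 6 promoter peaks. With 1 library alone, where no peak can be shared, distal peaks numbered 9 to 19 at Pou3f1, 67 to 73 at Pou3f2 and 115 to 131 at Pou3f3, and promoter peaks 2 to 3 at Pou3f1, 2 to 4 at Pou3f2 and 3 at Pou3f3. Pou3f3 had the most shared distal peaks and Pou3f1 the fewest under every alternative. Depth is unknown, so a site missing from 1 library may be below its detection. No paired analysis was possible because there is only 1 group.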
